A study of Mus musculus with 10 samples.

Results

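The N-myc downstream-regulated gene (NDRG) family has 4 members in the mouse, *Ndrg1*, *Ndrg2*, *Ndrg3* and *Ndrg4*, and all 4 were found by symbol among the 26146 genes of the count table. The family was chosen by its measured values in the same comparison of genotypes that is described here, so the levels and differences of its members are given as a description, with no test. RNA was sequenced in bulk from sorted hematopoietic stem cells (HSCs, LSK CD48-CD150+ cells) of C57BL/6J mice aged 8 to 12 weeks, with 5 mice per genotype and 1 sample from each mouse. Both genotypes carry floxed *Cited2* alleles (*Cited2* fl/fl). Cited2CTL mice (labelled wildtype) have no Cre. Cited2CKO mice (labelled *Cited2* knockout) carry Vav-iCre, which recombines throughout the hematopoietic system and not in HSCs alone, so the HSCs came from mice whose other blood cells carried the deletion as well. CITED2 is a transcriptional regulator that binds the coactivators CBP and p300 and competes there with hypoxia-inducible factors (HIFs).

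NDRG proteins share an alpha/beta-hydrolase fold but lack the catalytic residues of hydrolases. NDRG1 is a stress-responsive protein whose gene is switched on by HIFs when oxygen is low, it is phosphorylated by the kinases SGK1 and GSK3, and it takes part in the recycling of endosomes and in the maturation of mast cells and Schwann cells. NDRG2 is prominent in astrocytes, NDRG3 is an oxygen-regulated member, and NDRG4 is expressed mainly in brain and heart.

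The members lie on 4 chromosomes of GRCm38 in the GENCODE annotation. *Ndrg1* (chr15:66929318-66969640) has 16 exons on the minus strand, *Ndrg2* (chr14:51905271-51914158) has 16 exons on the minus strand, *Ndrg3* (chr2:156927345-156992056) has 17 exons on the minus strand, and *Ndrg4* (chr8:95676980-95715119) has 17 exons on the plus strand. Their coding sequences are 1182, 1113, 1164 and 1212 bases long in the same order, and any pair of them is identical at 65.8% to 68.7% of aligned bases. Windows of 85 bases, the length of the reads sequenced, were compared over all 4 members at once, so a single pair may be closer elsewhere. The 85 coding bases that are most alike in all 4 members are shown. They run from exon 13 to exon 15 in each gene, and capitals mark the 26 positions at which at least 1 member differs, against 59 that are the same in all 4. The sequences are given on the coding strand with introns removed, and the coordinates span the introns.
Ndrg1 (chr15:66933870-66937200): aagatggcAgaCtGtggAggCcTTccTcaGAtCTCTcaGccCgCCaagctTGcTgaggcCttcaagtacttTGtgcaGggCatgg
Ndrg2 (chr14:51906519-51906951): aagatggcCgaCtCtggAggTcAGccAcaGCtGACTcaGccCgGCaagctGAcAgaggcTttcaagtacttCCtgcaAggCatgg
Ndrg3 (chr2:156931222-156934944): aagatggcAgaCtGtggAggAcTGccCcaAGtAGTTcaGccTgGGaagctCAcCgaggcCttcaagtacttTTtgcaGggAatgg
Ndrg4 (chr8:95710709-95711138): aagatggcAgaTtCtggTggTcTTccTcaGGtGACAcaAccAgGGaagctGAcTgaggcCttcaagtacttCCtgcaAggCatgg
In this window *Ndrg2*, *Ndrg3* and *Ndrg4* differ from *Ndrg1* at 17, 16 and 17 bases. No run of 85 bases was shared between any members over their annotated transcripts, so a read matching 1 member without mismatches could not come from another.

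The 3′ end of the *Ndrg1* coding sequence holds a tandem repeat that sets it apart from the other members. It lies in exon 16 (chr15:66930951-66931040, minus strand, coding bases 1012 to 1101) and consists of 3 units of 30 bases, which encode the repeats of the C-terminal tail that SGK1 phosphorylates. Capitals mark the 24 bases that are the same in all 3 units.
Unit 1: GAGGGcaCCCGtAGCCGCTCcCAtACCAGc
Unit 2: GAGGGccCCCGaAGCCGCTCgCAcACCAGt
Unit 3: GAGGGgtCCCGtAGCCGCTCcCAtACCAGt
Between neighbouring units 50 of 60 compared bases match (83.3%). The best stretch of the same length and period in the other members matches at 25 of 60 bases in *Ndrg2*, 26 in *Ndrg3* and 25 in *Ndrg4*.

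Overlap with other genes was small. *Ndrg1* shares 255 of its 7286 runs of 85 bases (3.5%) with the antisense gene *Gm17035*, which has no row in the count table, and 55 (0.755%) with the antisense gene *Gm2895*, which received 29 to 59 counts per library and 418 in all, against 9332 for *Ndrg1*. Whether reads were counted by strand is not given in the sources used here, so reads of *Ndrg1* and of its antisense genes cannot be told apart in those stretches. *Ndrg3* shares at most 83 of 8739 runs (0.95%) with any other gene, *Ythdc1*, and holds the small RNA gene *Gm27653* in an intron. *Ndrg2* and *Ndrg4* share none.

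The libraries held 3058690 to 4548795 counts, and 14165 genes passed the filter on low counts. *Cited2* itself was measured at 101.3, 171.0, 162.0, 221.6 and 160.2 CPM (counts scaled to a common TMM-normalized library size) in Cited2CTL libraries 1 to 5, and at 3.80, 4.21, 120.1, 5.00 and 8.30 CPM in Cited2CKO libraries 1 to 5. The library labelled CKO 3 thus goes against its label in the targeted gene, with 508 counts of *Cited2*. The fitted log2 fold change of *Cited2* was -2.51 (SE 0.94, adjusted p = 0.328, edgeR quasi-likelihood F test with Benjamini-Hochberg adjustment) with this library and -4.92 (SE 0.27) without it. It was kept in its labelled group, and values without it are given below for each member. The markers of HSCs, which define the sorted cells, were present in every library, at a summed 3383 to 3725 CPM in Cited2CTL and 3012 to 3407 CPM in Cited2CKO HSCs.

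*Ndrg1* was the most abundant member and was lower in every Cited2CKO library than in every Cited2CTL library. In Cited2CTL libraries 1 to 5 it was expressed at 307.7, 286.4, 300.2, 266.4 and 255.6 CPM. In Cited2CKO libraries 1 to 5 it was expressed at 194.7, 212.0, 207.1, 224.9 and 156.5 CPM. The highest Cited2CKO library, CKO 4, stayed below the lowest Cited2CTL library, CTL 5, and CKO 5 lay lowest of all. The means were 283.2 ± 22.0 CPM and 199.0 ± 26.1 CPM (SD, n = 5 each), so that the Cited2CKO mean was 29.7% lower. The fitted log2 fold change was -0.51 (SE 0.09), and it was -0.52 (SE 0.10) without the library labelled CKO 3. That library had 207.1 CPM of *Ndrg1*, among the other Cited2CKO libraries, although its *Cited2* level lay within the range of the Cited2CTL libraries. With 679 to 1168 counts of *Ndrg1* per library, sampling of reads alone would give a coefficient of variation of 3.06% in Cited2CTL and 3.54% in Cited2CKO HSCs, and the libraries varied by 7.78% and 13.1%. Fewer cells that express a gene and less of its RNA per cell cannot be told apart in bulk samples.

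**Figure D1:**
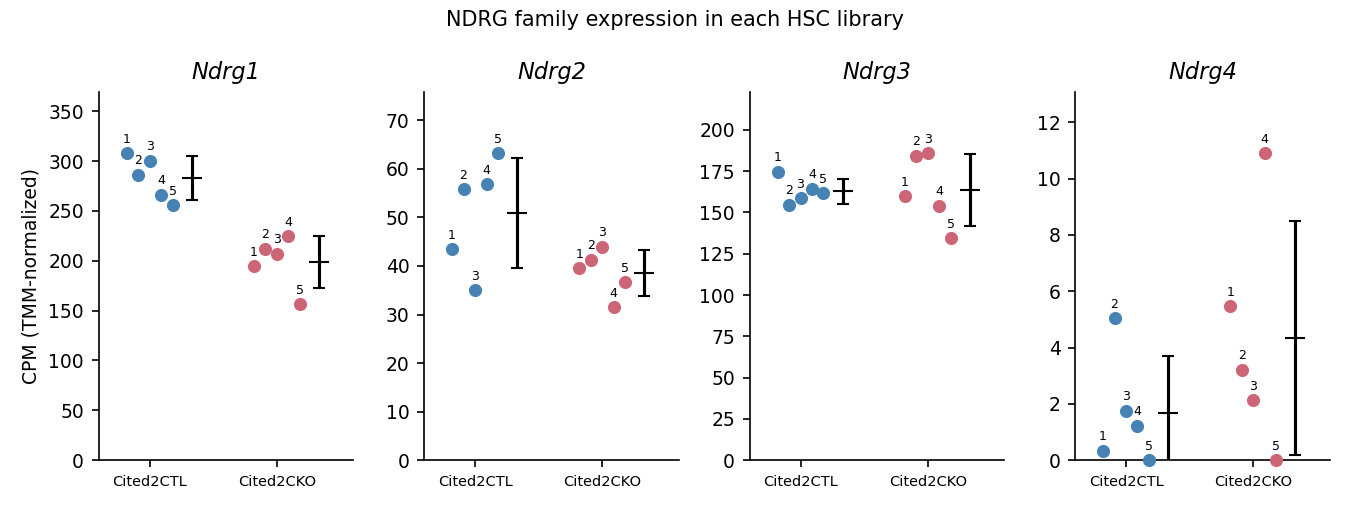
Each panel plots 1 member, with CPM on the y axis from 0 and genotype on the x axis. Points are single libraries with their replicate numbers, and the black marks give the mean ± SD of 5 libraries, cut at 0 for *Ndrg4*. The *Ndrg1* libraries of the genotypes do not overlap (lowest Cited2CTL 255.6, highest Cited2CKO 224.9 CPM), and those of the other members do.

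**Figure D2:**
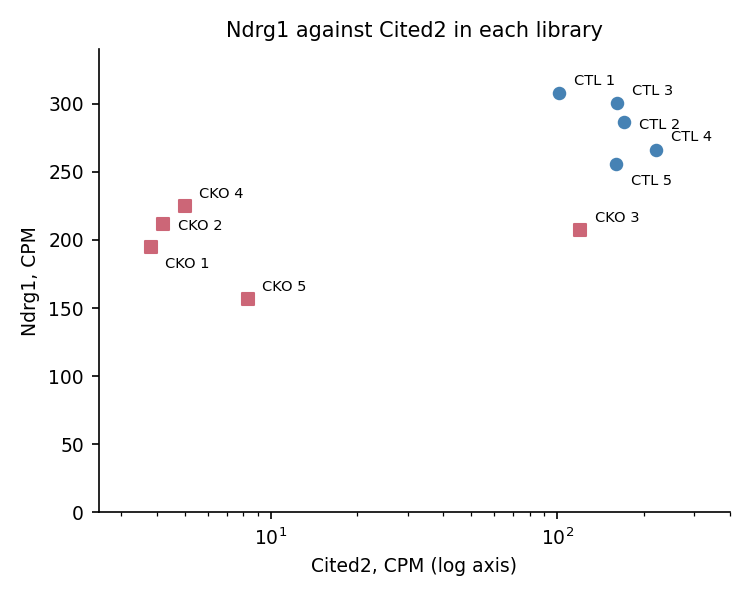
*Ndrg1* CPM (y axis, linear from 0) is plotted against *Cited2* CPM (x axis, log scale) for each library, with circles for Cited2CTL and squares for Cited2CKO. The library labelled CKO 3 sits at 120.1 CPM of *Cited2* and 207.1 CPM of *Ndrg1*, beside the Cited2CTL libraries on the x axis and level with the other Cited2CKO libraries on the y axis.

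*Ndrg3* was the next member in abundance and was at a like level in both genotypes. Its values were 174.6, 154.8, 158.7, 164.3 and 161.7 CPM in Cited2CTL libraries 1 to 5 and 159.7, 184.5, 185.8, 154.0 and 134.3 CPM in Cited2CKO libraries 1 to 5. Of the Cited2CKO libraries, 2 lay above and 2 below all Cited2CTL libraries, which were close together. The means were 162.8 ± 7.44 and 163.7 ± 21.8 CPM (SD, n = 5 each), with a fitted log2 fold change of 0.01 (SE 0.09), or -0.04 (SE 0.09) without the library labelled CKO 3. The wider spread in Cited2CKO HSCs, a coefficient of variation of 13.3% against 4.57%, was not tested.

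*Ndrg2* was expressed at a lower level and its genotypes overlapped. It was measured at 43.5, 55.8, 35.0, 56.8 and 63.2 CPM in Cited2CTL libraries 1 to 5 and at 39.5, 41.3, 44.0, 31.5 and 36.6 CPM in Cited2CKO libraries 1 to 5. The 3 highest libraries were Cited2CTL libraries, yet 4 of the 5 Cited2CKO libraries reached the lowest Cited2CTL library, CTL 3. The means were 50.9 ± 11.4 and 38.6 ± 4.79 CPM (SD, n = 5 each), and the fitted log2 fold change was -0.40 (SE 0.17), or -0.45 (SE 0.18) without the library labelled CKO 3. A per-library correction for GC content and length (the GC and length offset) took it to -0.29 (SE 0.17), while that of *Ndrg1* was then -0.47 (SE 0.10).

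*Ndrg4* was near the limit of detection and did not pass the filter on low counts. It received 1, 20, 6, 5 and 0 counts in Cited2CTL libraries 1 to 5 and 23, 13, 9, 37 and 0 counts in Cited2CKO libraries 1 to 5. Library CTL 5 and library CKO 5 held no read of it, which at their depth allows up to 0.656 and 0.691 CPM by counting error (3 counts). The highest library, CKO 4, reached 10.9 CPM and the highest Cited2CTL library 5.05 CPM. The means were 1.67 ± 2.01 CPM in Cited2CTL and 4.34 ± 4.15 CPM in Cited2CKO HSCs (SD, n = 5 each). Without the library labelled CKO 3 the Cited2CKO mean was 4.89 ± 4.58 CPM. The libraries varied by 120.3% and 95.8%, where sampling of reads alone would give 39.5% and 24.7%. At these counts and this spread no difference between the genotypes could be read.

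*Ndrg1* was the 1 member whose libraries did not overlap between the genotypes. Of the 3 members that passed the filter, edgeR called 1, *Ndrg1*, lower at an adjusted threshold of 0.05 and a fold change above 20%, beside 0.106% of the 14165 tested genes called lower and 0.120% called higher. DESeq2 also called 1 member, *Ndrg1*, lower, beside 1.39% of 13855 genes called lower and 1.05% called higher. All Cited2CKO libraries lay below all Cited2CTL libraries for 1 of the 3 members, beside 1.98% of tested genes, and above them for none of the 3, beside 1.35%. The edgeR call of *Ndrg1* was lost with the GC and length offset, with or without the replicate block, and in 8 of the 10 fits that left out 1 library (all except those without CTL 5 or CKO 4). The family was chosen on this contrast, so nothing is read from these counts.

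Levels of different genes were compared per kilobase of the deposited gene length. *Ndrg1* stood at 98.0 ± 7.62 CPM per kb in Cited2CTL HSCs, above 94.4% of tested genes, and at 68.9 ± 9.04 CPM per kb in Cited2CKO HSCs, above 88.6% (SD, n = 5 each). *Ndrg3* stood at 60.7 ± 2.77 and 61.0 ± 8.11 CPM per kb, above 85.9% and 86.0% of tested genes. *Ndrg2* stood at 23.6 ± 5.28 and 17.9 ± 2.22 CPM per kb, above 60.6% and 53.5% of tested genes, and *Ndrg4* at 0.564 ± 0.679 and 1.46 ± 1.40 CPM per kb. The order *Ndrg1*, *Ndrg3*, *Ndrg2*, *Ndrg4* thus held in both genotypes. *Ndrg1* and *Ndrg3* did not overlap in Cited2CTL HSCs (88.4 to 106.5 against 57.7 to 65.1 CPM per kb) but overlapped in Cited2CKO HSCs (54.1 to 77.8 against 50.1 to 69.2 CPM per kb), where their means differed by less than 1 SD of either.

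The balance between the leading members differed accordingly. Within each library, the ratio of *Ndrg1* to *Ndrg3* per kb was 1.47 to 1.76 in Cited2CTL HSCs (mean 1.62 ± 0.13) and 1.03 to 1.36 in Cited2CKO HSCs (mean 1.13 ± 0.13; SD, n = 5 each). It was above 1 in all 10 libraries, and its ranges did not overlap between the genotypes. *Ndrg1* made up 53.6 ± 3.25% of the summed family level in Cited2CTL and 46.1 ± 2.63% in Cited2CKO HSCs. *Ndrg3* made up 33.2 ± 1.15% and 40.9 ± 2.13%, *Ndrg2* 12.9 ± 3.07% and 12.1 ± 1.65%, and *Ndrg4* 0.308 ± 0.368% and 0.951 ± 0.922%. The summed level was 182.8 ± 5.52 CPM per kb (178.0 to 191.8) in Cited2CTL and 149.2 ± 16.9 CPM per kb (121.2 to 162.4) in Cited2CKO HSCs, without overlap between the genotypes. These ratios and sums rest on the values that chose the family and were not tested.

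**Figure D3:**
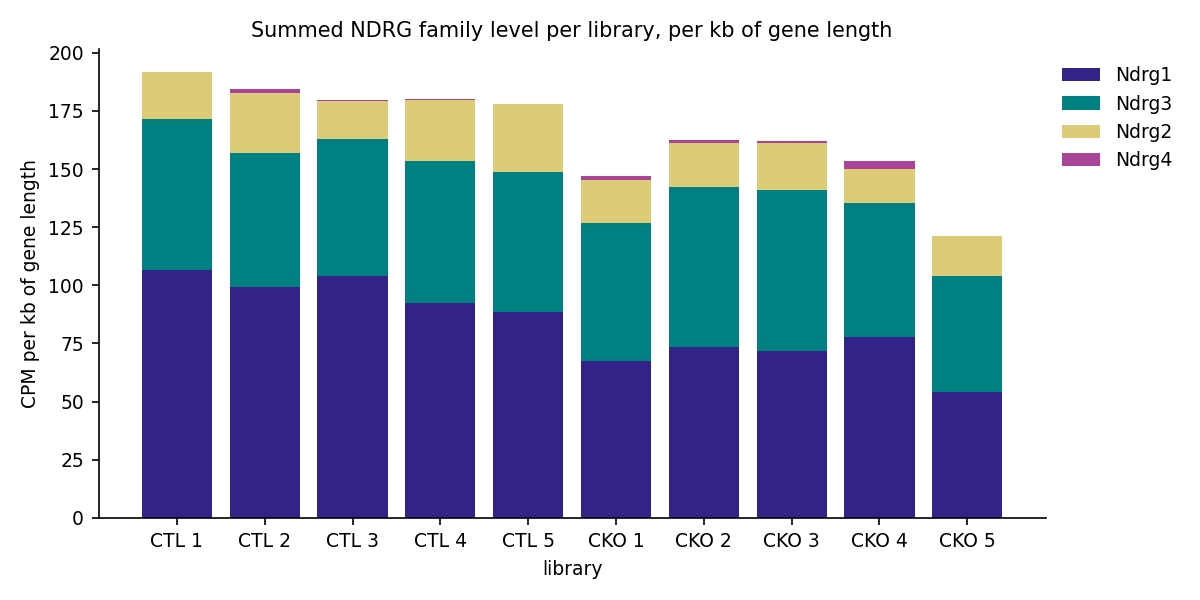
Stacked bars give the summed level of the family in each library, in CPM per kb of gene length, from *Ndrg1* at the base to *Ndrg4* at the top. The *Ndrg1* segment spans 88.4 to 106.5 CPM per kb in the 5 control libraries (CTL) and 54.1 to 77.8 in the 5 knockout libraries (CKO), while the *Ndrg3* segment overlaps between genotypes.

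Because *Ndrg1* is a HIF target, other HIF targets were read from the same fit. Of 51 listed genes 46 were tested, and edgeR called none of them, with 9 lower and 2 higher at an unadjusted p under 0.05. Over all 14165 tested genes 1003 (7.08%) were lower and 821 (5.80%) higher at that threshold, and these shares also stand beside the lists that follow. DESeq2 called 1 higher and 1 lower, beside 1.05% and 1.39% of all genes it tested, and limma-voom called none. The median log2 fold change of the list was -0.10, against 0.01 over all tested genes, and 31 of the 46 genes were below 0, against 49.0% of all tested genes. The median moved to -0.01 with the GC and length offset. *Vldlr*, a lipoprotein receptor, had a log2 fold change of 0.79 (SE 0.17, edgeR adjusted p = 0.0781, DESeq2 adjusted p = 0.00242) and was thus opposite in sign to *Ndrg1*. *Aldoc*, a glycolytic aldolase, was measured at 67.2, 49.3, 40.0, 39.5 and 45.3 CPM in Cited2CTL and 21.6, 27.7, 39.2, 23.5 and 33.6 CPM in Cited2CKO libraries 1 to 5, without overlap (log2 fold change -0.72, edgeR adjusted p = 0.145, DESeq2 adjusted p = 0.0368). *Lonp1*, a mitochondrial protease, had a log2 fold change of -0.30 (SE 0.09, edgeR adjusted p = 0.168), also without overlap. The GC and length offset took *Vldlr*, *Aldoc* and *Lonp1* to 0.61, -0.65 and -0.10. All Cited2CKO libraries lay below all Cited2CTL libraries for 4 of the 46 tested genes and above them for none. Over all tested genes these shares were 1.98% and 1.35%.

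Some further HIF targets, named for textbook roles after values were seen, had small differences. *Ldha*, which makes lactate, had a log2 fold change of -0.07 (SE 0.08), the glycolytic kinase *Pgk1* 0.02 (SE 0.09), the glucose transporter *Slc2a1* -0.12 (SE 0.10), and *Bnip3*, a mitophagy receptor, 0.08 (SE 0.11). *Vegfa*, the angiogenic growth factor, was measured at 4.76 ± 1.74 and 4.22 ± 2.46 CPM (SD, n = 5 each). None of these passed the edgeR or the DESeq2 test. They are a part of the list, whose 46 tested genes ran from -0.72 (*Aldoc*) to 0.79 (*Vldlr*).

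Regulators of *Ndrg1* transcription held 1 called gene. Of 30 listed genes, *Cited2* among them, 29 were tested, and edgeR called 1 lower and none higher, beside 0.106% and 0.120% of all tested genes. At an unadjusted p under 0.05, 7 were lower, the deleted *Cited2* among them, and 2 higher, beside 7.08% and 5.80% of all tested genes. *Vdr*, the vitamin D receptor, was measured at 77.9, 80.1, 72.0, 80.2 and 79.6 CPM in Cited2CTL libraries 1 to 5 and 53.0, 49.5, 46.6, 44.4 and 31.3 CPM in Cited2CKO libraries 1 to 5. It fell without overlap between the genotypes (log2 fold change -0.79, SE 0.13, edgeR adjusted p = 0.0264), and the GC and length offset ended the call (log2 fold change -0.73, adjusted p = 0.0630), as did the replicate block and the omission of any single Cited2CTL library or of CKO 2. *Egr1*, an immediate early transcription factor, had a log2 fold change of -0.44 (SE 0.10, edgeR adjusted p = 0.0781, DESeq2 adjusted p = 0.000803), with 4 of 5 Cited2CKO libraries below all Cited2CTL libraries, and -0.22 with the offset. *Myc* had a log2 fold change of -0.26 (SE 0.10, edgeR adjusted p = 0.293). All Cited2CKO libraries lay below all Cited2CTL libraries for 1 of the 29 genes, beside 1.98% of all tested genes. The median of the list was -0.08, against 0.01 over all tested genes.

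The oxygen-sensing regulators and some others in this list, named for their roles, were detected in both genotypes, *Epas1* at a low level. *Hif1a*, the oxygen-regulated HIF subunit, was measured at 153.0 ± 11.4 and 174.2 ± 26.9 CPM in Cited2CTL and Cited2CKO HSCs (SD, n = 5 each), and its log2 fold change of 0.19 (SE 0.10) did not pass the test. *Epas1*, which encodes HIF-2 alpha, was at 4.19 ± 1.68 and 4.87 ± 2.98 CPM. The partner *Arnt* had a log2 fold change of 0.12 (SE 0.10), the ubiquitin ligase subunit *Vhl* -0.11 (SE 0.11), and the prolyl hydroxylases *Egln1* and *Egln3* 0.17 (SE 0.24) and -0.24 (SE 0.30). The coactivators *Crebbp* and *Ep300*, to which CITED2 binds, had log2 fold changes of -0.00 (SE 0.20) and 0.10 (SE 0.14). *Mycn*, after which the family is named, was measured at 163.2 ± 19.5 and 143.7 ± 3.05 CPM (log2 fold change -0.18, SE 0.08, edgeR adjusted p = 0.386). None of these genes was called, at the precision that these standard errors give.

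The list of kinases that phosphorylate NDRG1, their activators and some related genes gave no call by edgeR. Of 20 listed genes 19 were tested, and edgeR and limma-voom called none, with 4 lower and none higher at an unadjusted p under 0.05 (7.08% and 5.80% of all tested genes), while DESeq2 called 2 lower (1.39% of all genes it tested). These were *Akt2*, a kinase of the insulin pathway, with a log2 fold change of -0.42 (SE 0.09, edgeR adjusted p = 0.0783), and *Telo2*, which stabilizes mTOR-family kinases, with -0.53 (SE 0.12, edgeR adjusted p = 0.0909). For each of them all 5 Cited2CKO libraries lay below all Cited2CTL libraries, as for *Mtor* (log2 fold change -0.32, SE 0.11, edgeR adjusted p = 0.255). These 3 of the 19 tested genes stand beside 1.98% of all tested genes. The GC and length offset took *Akt2*, *Telo2* and *Mtor* to -0.25, -0.41 and -0.25. *Sgk1*, the kinase that phosphorylates the repeats, was at 33.3 ± 10.4 and 32.7 ± 9.36 CPM, and its relative *Sgk3* at 138.7 ± 18.7 and 155.5 ± 18.5 CPM. *Gsk3b* had a log2 fold change of 0.17 (SE 0.08), and *Rictor*, the defining subunit of mTORC2, 0.07 (SE 0.08). The median of the list was 0.03.

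The endosomal recycling partners of NDRG1 gave no call either. Of 21 listed genes 19 were tested, and edgeR, DESeq2 and limma-voom called none, with 1 lower and 2 higher at an unadjusted p under 0.05 in edgeR (7.08% and 5.80% of all tested genes). *Rabep2*, an effector of endosomal Rab proteins, had a log2 fold change of -0.41 (SE 0.12, edgeR adjusted p = 0.179) and -0.15 with the GC and length offset. The Wnt coreceptor *Lrp6* had 0.41 (SE 0.15, adjusted p = 0.290) and *Rabgef1*, an exchange factor for RAB5, 0.33 (SE 0.15, adjusted p = 0.385). *Rab4a*, the recycling GTPase that binds NDRG1, was at 43.1 ± 5.35 and 36.2 ± 4.49 CPM. The cargo adhesion gene *Cdh1* did not pass the filter, with at most 29 counts in a library. The median of the list was -0.05.

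**Figure D4:**
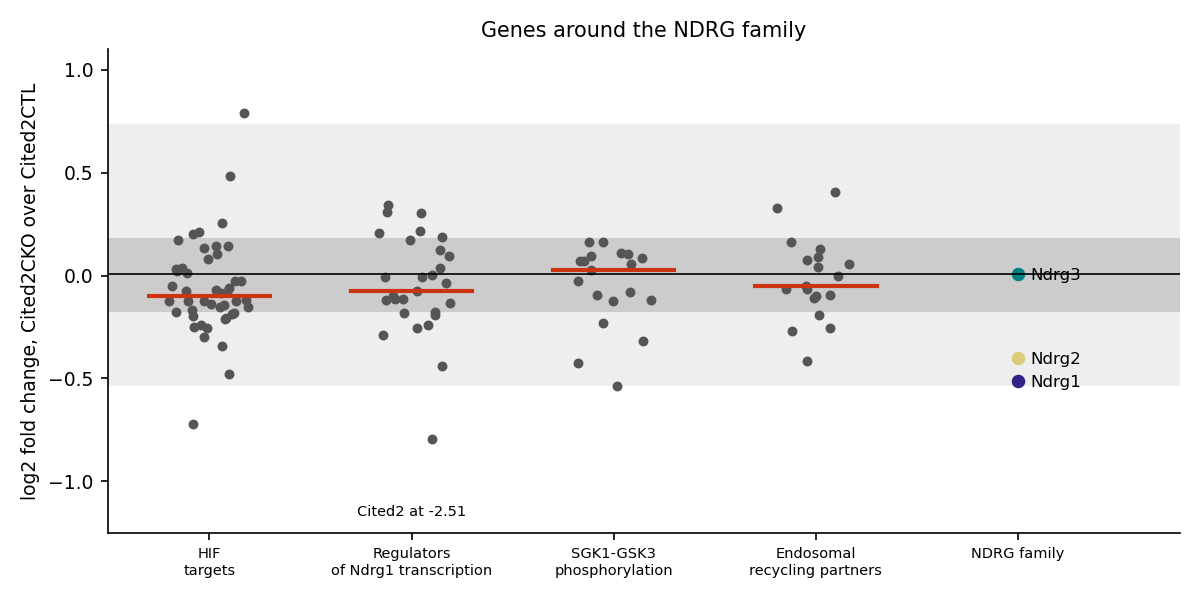
Each grey point is the edgeR log2 fold change (y axis, Cited2CKO over Cited2CTL) of 1 tested gene in the 4 lists around the family, red lines are list medians, and coloured points are the 3 members that passed the filter. The bands hold the middle 50% (dark) and 90% (light) of all tested genes, the black line is their median, and *Cited2* lies off the axis at -2.51. The list medians run from -0.10 to 0.03, while *Ndrg1* lies at -0.51.

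The genes whose profile over the 10 libraries came nearest to that of *Ndrg1* were *Dalrd3*, *Def8*, *Snx8*, *Aldh7a1* and *Wwp2*. Likeness was measured as the root mean square difference of log2 CPM, each gene centred on its own mean, and was 0.101, 0.114, 0.116, 0.116 and 0.119 for these 5 genes, against a median of 0.408 over 14164 genes. *Ndrg1* itself deviated from its mean by 0.296 on this scale. *Ndrg3* ranked 2043 (0.284) and *Ndrg2* ranked 4337 (0.338), so many genes outside the family had a nearer profile than its own members. *Dalrd3* went from 140.8 ± 10.6 to 111.2 ± 12.4 CPM (Cited2CTL to Cited2CKO; SD, n = 5 each), *Def8* from 328.1 ± 31.2 to 254.4 ± 14.1, and *Wwp2*, a ubiquitin ligase, from 160.9 ± 10.3 to 125.6 ± 17.7 CPM. *Snx8*, an endosomal sorting nexin, went from 23.7 ± 1.91 to 17.6 ± 1.26 CPM, and *Aldh7a1*, an aldehyde dehydrogenase, from 93.6 ± 7.52 to 68.3 ± 11.4 CPM. These genes were picked for likeness to a gene that differs between genotypes, so their own difference was not tested. Under the GC and length offset the fitted log2 values became -0.14, -0.22, -0.20, -0.18 and -0.42 in the order *Dalrd3*, *Def8*, *Wwp2*, *Snx8*, *Aldh7a1*, against -0.34, -0.37, -0.36, -0.42 and -0.45 without it. When each gene was centred within its genotype, 1 of the 5, *Dalrd3*, stayed among the nearest 5, and *Med1* came first.

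**Figure D5:**
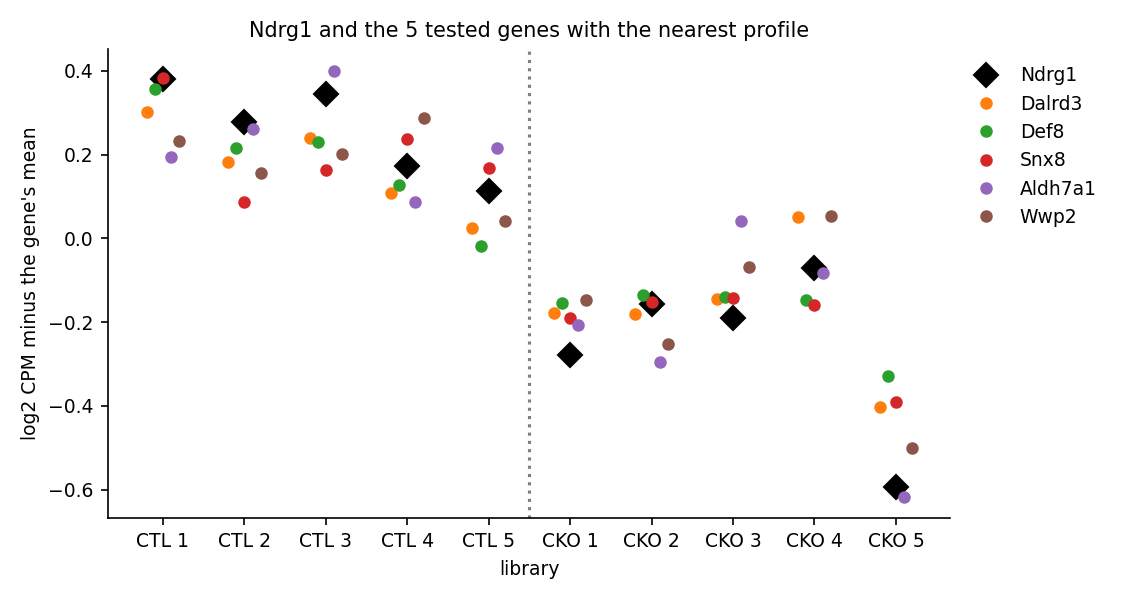
Log2 CPM minus the gene's mean over all libraries (y axis) is plotted for each library (x axis), with black diamonds for *Ndrg1* and coloured circles for the 5 tested genes of nearest profile. All 6 genes are lowest in the library CKO 5, and *Ndrg1* is above its mean in the 5 control libraries (CTL) and below it in the 5 knockout libraries (CKO).

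Some markers of other cells also differed between the genotypes. Mast cell and basophil markers (10 listed, 4 tested, none at 0 in all libraries) summed to 42.9 to 65.9 CPM in Cited2CTL and 77.1 to 153.7 CPM in Cited2CKO HSCs, where all 5 libraries lay above all Cited2CTL libraries. None of the 4 was called by edgeR, with 2 higher and none lower at an unadjusted p under 0.05 (5.80% and 7.08% of all tested genes). DESeq2 called *Fcer1a* and *Cpa3* higher, beside 1.05% of all genes it tested. *Fcer1a* had a log2 fold change of 2.77 (SE 0.58, edgeR adjusted p = 0.0729) and *Cpa3* 0.98 (SE 0.23, edgeR adjusted p = 0.0986). With the GC and length offset they had 2.63 and 0.87 (edgeR adjusted p = 0.177 and 0.505). The sum rests mainly on these genes, the 2 most abundant of the list. *Cpa3* was at 36.6 and 72.0 CPM and *Fcer1a* at 4.72 and 31.3 CPM (Cited2CTL and Cited2CKO means). *Hdc*, at 4.00 and 2.07 CPM, was the 1 tested gene of this list below 0 (log2 fold change -0.97, SE 0.70, edgeR adjusted p = 0.611). Markers of multipotent and lymphoid progenitors (9 listed, 9 tested) summed to 295.3 to 416.6 and 335.9 to 547.3 CPM, with 4 of 5 Cited2CKO libraries above all Cited2CTL libraries. edgeR called 2 of these 9 genes higher and none lower, beside 0.120% and 0.106% of all tested genes, and at an unadjusted p under 0.05 3 were higher and 1 lower. *Cd48*, one of those called, rose (log2 fold change 1.18, SE 0.20, edgeR adjusted p = 0.0264). Its call was lost with the GC and length offset (adjusted p = 0.174) and in each fit without CTL 1, CTL 2, CTL 4, CKO 1, CKO 2 or CKO 5. *Flt3*, a cytokine receptor of multipotent progenitors, had the opposite sign (log2 fold change -0.36, SE 0.11, edgeR adjusted p = 0.194). *Cd48*, whose protein was absent by the sort gate, was at 14.4 to 27.4 CPM in Cited2CTL and 38.5 to 60.8 CPM in Cited2CKO libraries. The HSC marker sum was lower than in any Cited2CTL library in 4 of 5 Cited2CKO libraries, lowest in the library labelled CKO 3, and none of its 18 genes was called by edgeR (3 lower and 2 higher at an unadjusted p under 0.05), while *Prdm16* was lower by DESeq2 (adjusted p = 0.00237).

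The ranges of the remaining lists overlapped between the genotypes, as did those of the progenitor and HSC marker sums above. Myeloid markers summed to 460.0 to 1024 CPM in Cited2CTL and 496.7 to 773.1 CPM in Cited2CKO HSCs, with the neutrophil gene *Ly6g* at 0 in all libraries. Erythroid markers summed to 580.3 to 689.8 and 575.6 to 697.6 CPM, megakaryocyte markers to 605.6 to 749.2 and 628.5 to 774.6 CPM, B, T and NK cell markers to 138.0 to 164.8 and 154.4 to 188.7 CPM, and stromal and endothelial markers to 133.5 to 165.2 and 139.9 to 188.5 CPM. Of the 5 Cited2CKO libraries, 4 lay above all Cited2CTL libraries in the B, T and NK cell sum, 3 in the stromal and endothelial sum, 1 each in the erythroid and megakaryocyte sums, and none in the myeloid sum. The part of these cell markers in the *Ndrg1* difference was not tested.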

How the data were processed

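Single-end reads were aligned by the authors (HISAT2, GRCm38), assigned to genes (Rsubread) and deposited as raw counts with gene lengths. The annotation, strand setting and treatment of multiply matching reads are not given in the sources used here. Columns were matched to samples by their labels. Genotypes were compared in edgeR 4.0.16 under R 4.3.3: filterByExpr, TMM normalization, and the robust quasi-likelihood F test with Benjamini-Hochberg adjustment over 14165 genes (adjusted p under 0.05, fold change above 20%, 5 libraries per genotype). The common biological coefficient of variation was 25.3%. Centred profiles used log2 CPM with a prior count of 2. Library totals of 3058690 to 4548795 counts set the counting error of low genes, and limits for a count of 0 (3 counts) cover counting error only. Levels between genes used CPM per kb of deposited length. Sequences, positions and GC content (13895 tested genes, 98.1%) came from GENCODE vM21 on GRCm38, the authors' build.

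The family and the lists were chosen with earlier results of these data known. Named were *Cited2*, the 4 members, every called gene and the 3 genes of smallest unadjusted p of each list (those of the marker lists without a call or difference are given as sums), the 5 genes nearest to *Ndrg1*, and genes whose exons overlap a member. Genes named for their roles, *Med1*, *Ythdc1*, *Gm27653*, *Ly6g* and *Cdh1* fall outside this rule and were chosen after values were seen. Alternatives were DESeq2 1.42.0, DESeq2 size factors, limma-voom (limma 3.58.1), no filter, at least 10 counts in every library, the replicate number as a block, a GC and length offset per library (loess, span 50%) with and without that block, an adjusted p of 0.01, and each library left out. The scripts were tested on simulated data. No 2 libraries held identical counts. Some genes of the marker lists count in the sums and numbers of genes but are not reported here.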

Additional observations from a re-analysis of the deposited data

Results flagged for a closer look

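In groups of 5 libraries, the highest or lowest library stood apart from the others by Dixon's criterion in 14 of 110 groups examined, where chance marks about 1 in 20. None of these groups was a member of the NDRG family. *Cited2* in the library labelled CKO 3 (120.1 CPM, next 8.30) was the one that touches every comparison, and values of the members with and without it are given above. Among the lists, *Vdr* was low in CTL 3 (72.0 CPM, next 77.9) and *Rabgef1* high in CTL 2 (46.2 CPM). Among the genes of nearest profile, *Def8* (229.3 CPM) and *Snx8* (15.4 CPM) were low in CKO 5, the library in which *Ndrg1* was also lowest.

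Of the markers, *Itgam* was high in CKO 2 (62.1 CPM), *Ms4a3* in CTL 5 (24.5 CPM), *Treml1* in CTL 2 (24.0 CPM), and *Hdc* and *Pdgfra* in CKO 4 (5.59 and 9.70 CPM). The summed HSC markers were high in CTL 1 (3725 CPM), and the summed multipotent and lymphoid progenitor markers and myeloid markers were high in CTL 5 (416.6 and 1024 CPM). Library CKO 4 had the lowest total of its genotype (3500215 counts, next 4148213). The difference of *Ndrg1* had a log2 fold change between -0.56 and -0.44 whichever library was left out.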

How the results depend on the processing

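The log2 fold change of *Ndrg1* lay between -0.53 and -0.47 over 8 alternatives and between -0.56 and -0.44 over 10 fits without 1 library. Those of *Ndrg2* (-0.42 to -0.27, and -0.51 to -0.31) stayed below 0, and those of *Ndrg3* (-0.06 to 0.02, and -0.04 to 0.06) stayed near 0. The call of *Ndrg1* was made in 6 of the 8 alternatives, not with the GC and length offset, and among the fits without 1 library only without CTL 5 or CKO 4. The family was chosen on this contrast, so nothing is read from these calls. In the edgeR fit of all libraries 0.106% of tested genes were called lower. *Ndrg4* was limited by low counts and by its spread between libraries. That spread was 120.3% in Cited2CTL and 95.8% in Cited2CKO HSCs, beyond the 39.5% and 24.7% that sampling of reads alone would give. Genes called were 17 higher and 15 lower. They became 146 and 192 with DESeq2, 5 and 3 with the offset, 9 and 3 with the offset and the replicate block, and 5 and 3 at an adjusted p of 0.01. Without 1 library they ran from 5 to 27 higher (27 without the library labelled CKO 3) and from 3 to 18 lower. The cause of these moves was not tested, except that a stricter threshold leaves fewer calls by construction.

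Same-numbered libraries correlated between -0.0947 and 0.208, and not every library matched its own number best, so the numbers were not taken as pairs. With the replicate block 15 genes were called higher and 9 lower, and *Ndrg1* had -0.52.

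HIF targets: 2 genes called with DESeq2, 1 higher and 1 lower. Their median of -0.10 moved to -0.01 with the offset, with and without the block, and ran from -0.10 to -0.06 without 1 library. Regulators of *Ndrg1*: 1 gene called, 2 with DESeq2, no filter or limma-voom, 0 with the block, the offset, both, or an adjusted p of 0.01, and 0 to 2 without 1 library. With limma-voom, and in the fit without the library labelled CKO 3, 1 of the 2 was the deleted gene *Cited2*. Their median of -0.08 moved to -0.01 with the offset, with and without the block, and ran from -0.11 to -0.03 without 1 library. SGK1-GSK3 phosphorylation: 2 called with DESeq2, 0 to 1 without 1 library. Their median of 0.03 moved to -0.05 with the offset and block, and ran from -0.04 to 0.04 without 1 library. Of single genes, 1 value reversed: *Hbb-bs* (-0.53) ran from -0.81 without CKO 2 to 0.19 without CTL 5. Of the 5 genes nearest to *Ndrg1*, 1 was shared after centring within genotype.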
